A study of Mus musculus with 4 samples.

Results

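Genes for subunits of the oxidative phosphorylation system were followed in NIH 3T3 cells, a mouse fibroblast line, in which the gene for selenoprotein T was targeted by RNA interference. The members were taken by gene name: names that begin with Nduf (assembly factors named Ndufaf left out), Uqcr, Cox4 to Cox8 with a further letter, or Atp5, together with Sdha, Sdhb, Sdhc, Sdhd, Cyc1 and Cycs. This rule found 154 of 22534 probes, for 78 genes, and 68 of these genes had a probe with a value on all 4 arrays and were tested among 4754 genes in all. By complex, 32 of the 78 genes belong to complex I, 4 to complex II, 8 to complex III, 16 to complex IV and 17 to complex V, and Cycs encodes the carrier cytochrome c.

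The study used 4 arrays of 2 colours each. Cells carrying construct siSelT-1, aimed at nucleotides 205 to 224 of Selt, gave the Cy5 sample of 2 arrays, and cells carrying siSelT-5, aimed at nucleotides 971 to 989, that of the other 2. The Cy3 sample was in each case from pU6-m3 vector cells. All cells, the vector controls included, were hygromycin-selected stable transfectants (150 µg/ml) grown with 10% serum and 100 nM selenite, and the labels call the 2 arrays of a construct biological replicates. What was repeated, whether a line was a pool or a clone, and whether arrays shared a vector culture are not given in the sources used here.

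Oxidative phosphorylation couples the oxidation of NADH and succinate in mitochondria to the making of ATP. Complexes I and II pass electrons to ubiquinone, complex III passes them to cytochrome c, complex IV passes them to oxygen, and complex V, the ATP synthase, uses the proton gradient that complexes I, III and IV build. Each complex except complex II joins nuclear-encoded subunits with subunits made from mitochondrial DNA. The genes described here are the nuclear ones. Fibroblast lines grown in glucose make much of their ATP by glycolysis but keep a working respiratory chain.

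Values are log2 ratios of knockdown over vector RNA, as deposited. The base of the logarithm is not stated, and the direction is the likely one, taken from the sample titles and the dye labels. Knockdown RNA carried Cy5 on every array, so a dye effect of a probe is part of each ratio and its share was not tested. Selt itself was not among the probe names used here and was not analysed. The median of the shared probes lay above 0 on every array, at 0.14 for siSelT-1 and 0.39 for siSelT-5, averaged over their arrays. Counts from the test are therefore given as deposited and again after every array was centred on that median, and "rose" and "fell" refer to the ratio as deposited unless centring is named. The test was limma's moderated test over all 4754 genes, with a Benjamini-Hochberg adjusted p under 0.05. In bulk RNA of a culture, a change in some of the cells cannot be told apart from a smaller change in all of them.

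Most subunit genes stood above vector with both constructs, and by more than the typical gene. Over both constructs together, 57 of 68 members rose and 1 fell, against 45.7% of all tested genes that rose and 8.04% that fell. After centring, 40 of these members passed as higher and 3 as lower, against 20.5% and 21.9% of all genes. The median of the members' mean ratios was 0.61 log2, against 0.25 for all genes, and 0.34 against -0.02 after centring. A measure that needs no zero point gave a like picture: 42 of 68 members lay above the median gene on all 4 arrays, against 25.3% of all genes, and 25 lay above the 75th percentile on all 4, against 8.56%. The counts of members and of all genes depended on which arrays were in the fit, which gives a gene the same spread for both constructs. Over genes, the arrays of a pair correlated at 0.84 for siSelT-1 and at 0.66 for siSelT-5. The part of this unlike spread in the counts was not tested. When siSelT-1 replicate 1 was left out, limma called 0 of 68 members and 0 of all 4754 genes, although 49 members and 1846 genes had an unadjusted p under 0.05. When siSelT-1 replicate 2 was left out, 36 members were called, and 18.4% of all genes. After centring, 0 members and 0 of all genes passed without either of these arrays in turn (33 and 36 members had an unadjusted p under 0.05).

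**Figure D1:**
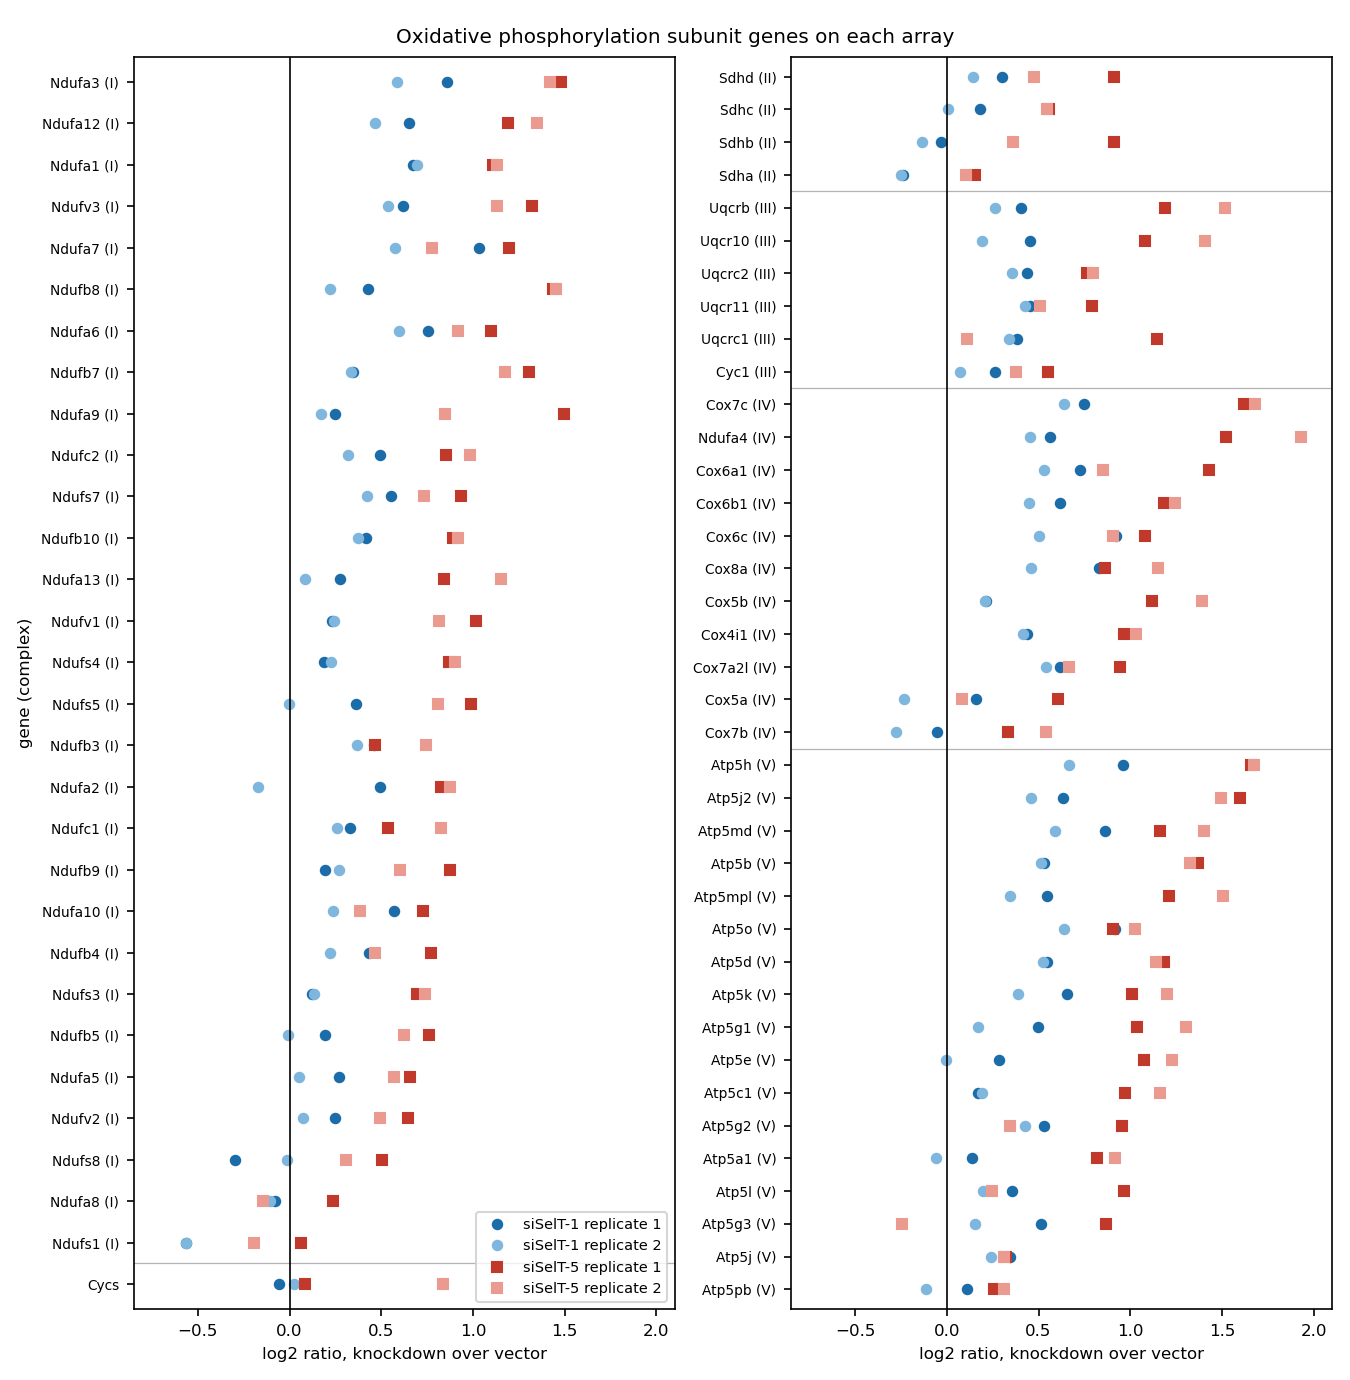
Each row is a member tested, with its complex in brackets, and the horizontal axis is the log2 ratio of knockdown over vector as deposited. Blue circles are the 2 siSelT-1 arrays and red squares the 2 siSelT-5 arrays. Of the 68 members, 53 (77.9%) lie above 0 on all 4 arrays and 0 lie below 0 on all 4, against 44.9% and 8.60% of all genes.

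With siSelT-1 alone, 18 members rose and 1 fell, against 10.3% and 3.37% of all genes. With siSelT-5 alone, 59 rose and 0 fell, against 47.6% and 6.29%. After centring these counts were 6 higher and 1 lower with siSelT-1 (3.83% and 5.07% of all genes) and 40 higher and 1 lower with siSelT-5 (19.2% and 20.0%). The 18 members that rose with siSelT-1 also rose with siSelT-5, as did 442 of the 490 genes (90.2%) that rose with siSelT-1 among all genes. In limma the siSelT-1 count was 0 with either siSelT-1 array left out, where 0 of all genes passed too (6 and 16 members had an unadjusted p under 0.05). It was 42, in either direction, with either siSelT-5 array left out, where 43.9% of all genes passed. It was also 0 with the replicate number as a block, where 34 members had an unadjusted p under 0.05 and 35 of all 4754 genes passed. Both constructs were set against vector RNA, and whether any of it was shared is not stated, so their overlap is given as a count and no more.

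Complex I, which oxidises NADH, had 26 of 29 tested members higher and 1 lower, with a median of 0.55 log2. Of all genes, 45.7% rose and 8.04% fell. After centring, 16 passed as higher and 2 as lower, against 20.5% and 21.9% of all genes. Ndufa3, a small accessory subunit of the membrane arm, had log2 ratios of 0.86 and 0.58 with siSelT-1 and 1.48 and 1.42 with siSelT-5. It was the highest gene of the complex, at 1.08 ± 0.44 (SD, n = 4), or 2.12-fold (limma, adjusted p = 0.00161). Ndufa12, an accessory subunit of the NADH-oxidising module, followed with 0.65 and 0.47 with siSelT-1 and 1.19 and 1.35 with siSelT-5 (mean 0.91 ± 0.42). Ndufa1, an accessory subunit needed for assembly of the membrane arm, stood at 0.67 and 0.70 with siSelT-1 and 1.11 and 1.13 with siSelT-5 (mean 0.90 ± 0.25). In all 3 genes the 4 arrays lay above 0 and the constructs did not overlap, siSelT-5 being higher. The 6 accessory subunits measured in the NADH-oxidising module all rose, with a median of 0.87, and 5 passed after centring.

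The nuclear-encoded core of complex I, which includes the subunits that carry the flavin and the iron-sulfur clusters, stood lower than the accessory subunits. The 6 core members had array medians of 0.18 and 0.10 with siSelT-1 and 0.67 and 0.61 with siSelT-5. The 23 accessory members had 0.43 and 0.26 with siSelT-1 and 0.87 and 0.88 with siSelT-5. The accessory median was the higher on 4 of 4 arrays, by 0.22 ± 0.05 (SD, n = 4).

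Ndufs1, the largest core subunit, which holds iron-sulfur clusters of the NADH-oxidising module, was the 1 member that fell. Its single probe gave -0.57 and -0.56 with siSelT-1 and 0.06 and -0.19 with siSelT-5. The siSelT-1 arrays were the lower ones and close together, and the siSelT-5 arrays lay on both sides of 0. It passed with both constructs together, at -0.32 ± 0.31 (SD, n = 4; limma, adjusted p = 0.0239), and with siSelT-1 alone (adjusted p = 0.0400), but not with siSelT-5 alone (adjusted p = 0.658). After centring it passed as lower in all 3 contrasts, with a mean of -0.58 for both constructs. Ndufa8, an accessory subunit on the side of the intermembrane space, had -0.08 and -0.11 with siSelT-1 and 0.23 and -0.15 with siSelT-5. Its mean of -0.02 did not pass as deposited (adjusted p = 0.840), and it passed as lower after centring, at -0.29 (adjusted p = 0.0422). Ndufs8, an iron-sulfur core subunit, did not pass over both constructs, with a mean of 0.12, or of -0.14 after centring (adjusted p = 0.258).

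Complex II, succinate dehydrogenase, is the complex without mitochondrially encoded subunits and also an enzyme of the tricarboxylic acid cycle. Its 4 genes had the lowest median of the 5 complexes, 0.30 log2, near that of all genes. Sdhd, a membrane anchor, had 0.30 and 0.14 with siSelT-1 and 0.91 and 0.47 with siSelT-5 and rose (mean 0.46 ± 0.33, SD, n = 4; limma, adjusted p = 0.0137). Sdhc, the other anchor, had 0.18 and 0.00 with siSelT-1 and 0.56 and 0.55 with siSelT-5 and rose as well (mean 0.32 ± 0.28, adjusted p = 0.0186), as the mean of 2 probes that lay on either side of 0 with siSelT-1. Neither passed after centring. Sdhb, the iron-sulfur subunit, had -0.03 and -0.14 with siSelT-1 and 0.91 and 0.36 with siSelT-5. It did not pass over both constructs (mean 0.28, limma, adjusted p = 0.0859). With siSelT-5 alone it passed as deposited (adjusted p = 0.020) but not after centring. Its values are means of 2 probes, which had opposite signs on replicate 2 of each construct. The siSelT-5 arrays were the higher ones for each of these 3 genes, and the constructs did not overlap.

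Sdha, the flavin-bearing catalytic subunit, is covered by 57 probes, far more than any other member, of which 31 had a value on all 4 arrays. Their mean gave -0.24 and -0.25 with siSelT-1 and 0.15 and 0.10 with siSelT-5, a mean of -0.06 ± 0.22 (SD, n = 4) that did not pass (limma, adjusted p = 0.539). After centring Sdha passed as lower, at -0.33 (adjusted p = 0.0179). The probes spread widely: probe means over the 4 arrays ran from -0.55 to 0.64, with 12 above 0 and 19 below 0. On each siSelT-1 array 3 of the 31 probes lay above 0, whereas 22 and 17 did on the siSelT-5 arrays. The SD between Sdha probe means was 0.25. Among the 7 other genes with at least 15 such probes it ran from 0.18 for Rpl13a to 0.53 for B2m. Of the 68 tested members, 59 rest on 1 probe and 9 on several.

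**Figure D2:**
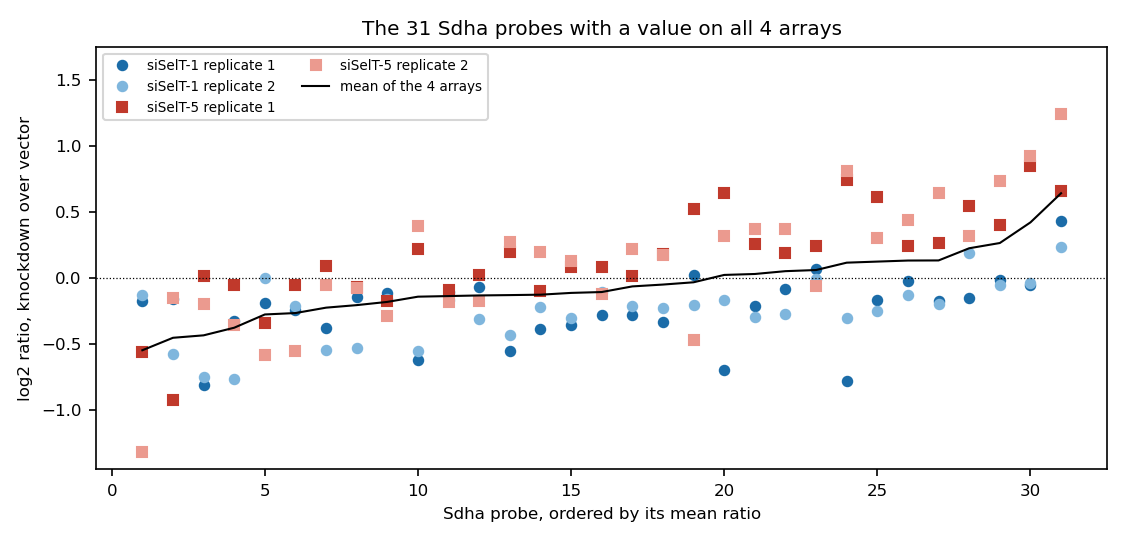
Each column is 1 of the 31 Sdha probes with a value on all 4 arrays, ordered by its mean, and the vertical axis is the log2 ratio of knockdown over vector. Circles are siSelT-1 arrays, squares siSelT-5 arrays, and the line is the mean of the 4, which runs from -0.55 to 0.64.

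Complex III, which passes electrons from ubiquinol to cytochrome c, had 5 of 6 tested members higher, with a median of 0.57 log2, and 4 after centring. Of all genes, 45.7% rose, and 20.5% passed as higher after centring. Uqcrb, a small ubiquinone-binding subunit, had 0.40 and 0.26 with siSelT-1 and 1.19 and 1.52 with siSelT-5. Its mean was 0.84 ± 0.61 (SD, n = 4), or 1.79-fold (limma, adjusted p = 0.00196). Uqcr10, another small subunit, had 0.45 and 0.19 with siSelT-1 and 1.08 and 1.41 with siSelT-5 (mean 0.78 ± 0.56). For both genes the siSelT-5 arrays lay well above the siSelT-1 arrays. Uqcrc2, a large core protein, stood closer together, at 0.44 and 0.36 with siSelT-1 and 0.77 and 0.80 with siSelT-5. Uqcrc1, its partner, had 0.38 and 0.34 with siSelT-1 and 1.14 and 0.11 with siSelT-5 and did not pass (mean 0.49 ± 0.45, adjusted p = 0.0559). Its siSelT-5 replicates lay on either side of the siSelT-1 pair. Cyc1, the haem-bearing catalytic subunit cytochrome c1, had the lowest mean of the complex, 0.31 ± 0.20 (adjusted p = 0.0245), and did not pass after centring. Its values were 0.26 and 0.07 with siSelT-1 and 0.55 and 0.38 with siSelT-5.

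Cycs, which encodes cytochrome c itself, did not pass. It had -0.06 and 0.03 with siSelT-1 and 0.09 and 0.84 with siSelT-5 (mean 0.22 ± 0.41, SD, n = 4; limma, adjusted p = 0.212). Only siSelT-5 replicate 2 stood clear of 0.

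Complex IV, cytochrome c oxidase, reduces oxygen, and its catalytic core is made in mitochondria, so its nuclear genes encode the surrounding subunits. Of 11 tested members 9 rose, also after centring, against 45.7% of all genes, or 20.5% centred. The median of 0.83 log2 was the highest of the 5 complexes. The complex IV genes not tested had values below 0 wherever they had one. Cox7c, a small membrane subunit, had 0.75 and 0.64 with siSelT-1 and 1.62 and 1.68 with siSelT-5. Its mean was 1.17 ± 0.55 (SD, n = 4), or 2.25-fold (limma, adjusted p = 0.00161). Ndufa4, named after complex I but now assigned to complex IV, had 0.56 and 0.45 with siSelT-1 and 1.52 and 1.93 with siSelT-5. Its siSelT-5 mean of 1.73, or 3.31-fold, was the highest of all 68 members. Cox6a1, of which 2 probes were averaged, had 0.73 and 0.53 with siSelT-1 and 1.43 and 0.85 with siSelT-5 (mean 0.88 ± 0.39). All 3 genes had every array well above 0. On siSelT-5 replicate 2, however, the 2 Cox6a1 probes stood at 1.43 and 0.27, the second below that array's median gene, at 0.35.

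The 2 lowest genes of complex IV did not pass over both constructs. Cox5a, a matrix-facing subunit, had 0.16 and -0.23 with siSelT-1 and 0.61 and 0.08 with siSelT-5 (mean 0.16, limma, adjusted p = 0.327). Cox7b, a small membrane subunit, had -0.06 and -0.28 with siSelT-1 and 0.33 and 0.54 with siSelT-5 (mean 0.13, adjusted p = 0.236). Cox7b thus lay below 0 on both siSelT-1 arrays and above 0 on both siSelT-5 arrays. Cox7a2l, which joins complexes III and IV into supercomplexes, rose, at a mean of 0.69.

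Complex V, the ATP synthase, had 15 of 17 tested members higher and 11 after centring, with a median of 0.75 log2. The shares of all genes were 45.7% and 20.5%. Atp5h, a subunit of the peripheral stalk, was the highest of all members, at 1.24 ± 0.51 (SD, n = 4), or 2.36-fold (limma, adjusted p = 0.00161). Its values were 0.96 and 0.67 with siSelT-1 and 1.66 and 1.68 with siSelT-5. Atp5j2, a small subunit of the membrane domain, had 0.64 and 0.46 with siSelT-1 and 1.60 and 1.49 with siSelT-5 (mean 1.05 ± 0.58). Atp5md, another small membrane subunit, had 0.86 and 0.59 with siSelT-1 and 1.16 and 1.40 with siSelT-5 (mean 1.00 ± 0.35). In each of these genes the siSelT-5 arrays lay above the siSelT-1 arrays.

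The 5 genes of F1, the part of the complex that includes the sites where ATP is made, all rose. They ran from 0.45 for Atp5a1, the alpha subunit, to 0.94 for Atp5b, the beta subunit, and 4 passed after centring. The 3 genes for the c ring, a part of the rotor that protons turn, encode the same mature protein. They ranged from 0.32 for Atp5g3 to 0.75 for Atp5g1. Of these, Atp5g3 did not pass, and 1 of the 3 passed after centring. The 5 small membrane-domain subunits all rose, with a median of 0.90, and 4 passed after centring. Among all genes 45.7% rose, and 20.5% passed as higher after centring. The peripheral stalk was the most uneven part. Besides Atp5h it holds Atp5o, at 0.87, Atp5pb, at 0.14, and Atp5j, at 0.30. Atp5pb had 0.11 and -0.12 with siSelT-1 and 0.26 and 0.31 with siSelT-5 and did not pass (adjusted p = 0.198). Atp5j had 0.34 and 0.24 with siSelT-1 and 0.32 and 0.31 with siSelT-5. It was the member whose arrays were the most alike, with an SD of 0.04 over the 4, and it rose as deposited (adjusted p = 0.0195) but not after centring, at 0.04.

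Set side by side, complex IV or complex V had the highest median and complex II the lowest on each of the 4 arrays. Complex IV had medians of 0.62 and 0.45 with siSelT-1 and 1.08 and 1.03 with siSelT-5. Complex I had 0.36 and 0.24 with siSelT-1 and 0.87 and 0.82 with siSelT-5. Complex IV was thus the higher on 4 of 4 arrays, by 0.22 ± 0.02 (SD, n = 4). Complex V exceeded complex I on 4 of 4 arrays as well, by 0.19 ± 0.11. Complex II had 0.07 and -0.07 with siSelT-1 and 0.73 and 0.42 with siSelT-5, and complex IV stood above it by 0.51 ± 0.11. These differences are descriptions of 4 arrays, and no test was run over the members.

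**Figure D3:**
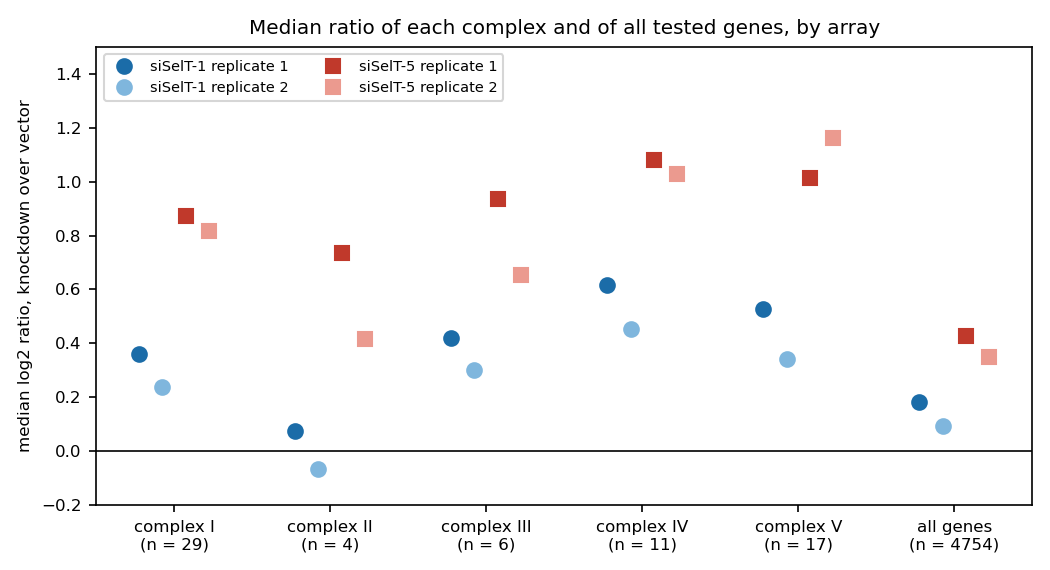
Median log2 ratio of knockdown over vector, as deposited, of the tested genes of each complex and of all 4754 genes, with the number of genes below each label. Circles are siSelT-1 arrays and squares siSelT-5 arrays. On every array complex IV lies above complex I, and complex II lies lowest of the complexes.

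Small subunits stood somewhat higher than large ones. Size classes were set by hand from general knowledge of the proteins, after the ratios had been seen, small meaning a precursor under 150 residues, and Ndufv3, which has isoforms of both kinds, was left out. The 38 small subunits had array medians of 0.50 and 0.34 with siSelT-1 and 1.02 and 0.95 with siSelT-5. The 29 large subunits had 0.25 and 0.19 with siSelT-1 and 0.87 and 0.73 with siSelT-5. The difference was above 0 on 4 of 4 arrays, 0.19 ± 0.05 (SD, n = 4), while single genes of both classes overlapped over most of their range. Of the small ones 34 rose and 0 fell, and of the large ones 22 rose and 1 fell. After centring these counts were 26 and 0, and 13 and 3. Of all genes, 45.7% rose and 8.04% fell, or 20.5% and 21.9% after centring.

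The difference by size was not the same in each complex. In complex I the small members exceeded the large ones on 4 of 4 arrays, by 0.18 ± 0.07 (SD, n = 4; 14 genes each). In complex III they did so on 3 of 4 arrays, with only 3 genes in each class. In complex V the sign was split, with the small members higher on 2 of 4 arrays and a mean difference of -0.03 ± 0.14. There the large Atp5h, Atp5b, Atp5o and Atp5d stood among the upper genes. Complex IV had only 1 large member, Cox4i1, at 0.71. Complex II has large members alone in this classing. A split into core and accessory subunits gave a difference of like size, with the 46 accessory members above the 21 core members on 4 of 4 arrays, by 0.22 ± 0.11. All tested complex IV members were classed as accessory and all complex II members as core, so this pooled split also compares complexes. Uqcrc1 and Uqcrc2, though named core proteins, were classed as accessory. In complex V the accessory subunits exceeded the core ones on 4 of 4 arrays, by 0.21 ± 0.08.

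**Figure D4:**
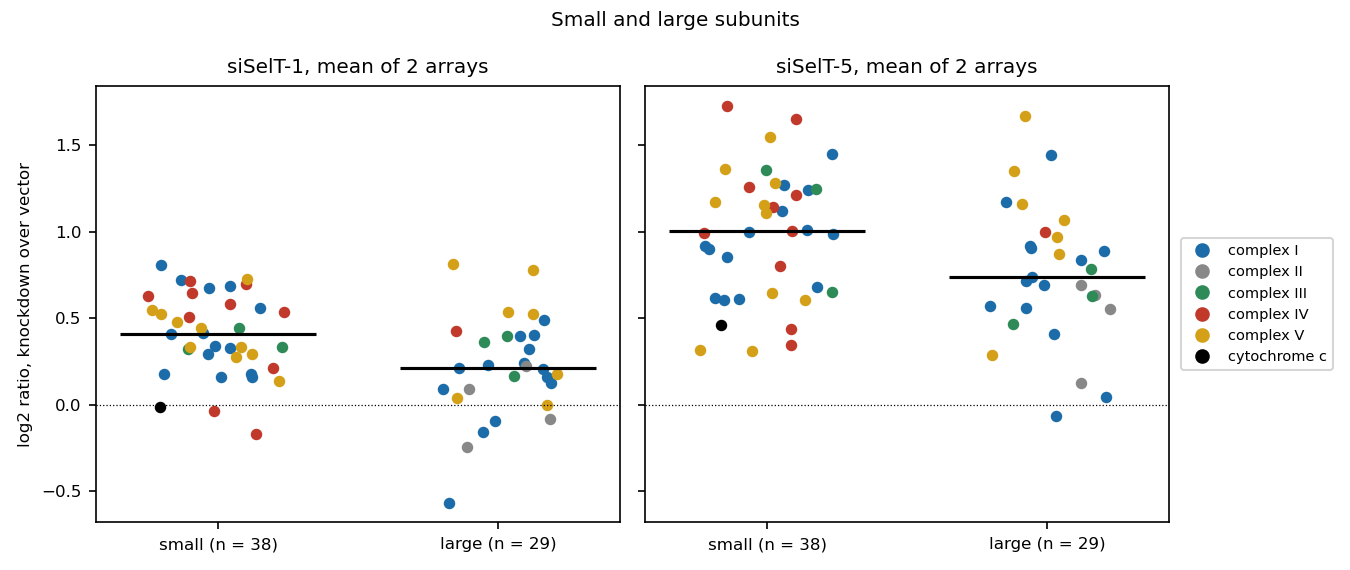
Each point is a tested member, placed by its mean log2 ratio of knockdown over vector over the 2 arrays of siSelT-1 (left) or siSelT-5 (right) and coloured by complex. Sideways scatter within a class carries no value, and the bars are class medians, which are 0.41 and 0.21 for siSelT-1 and 1.00 and 0.74 for siSelT-5, small subunits first.

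The direct comparison of siSelT-1 with siSelT-5 called 0 of 68 members in limma, with 44 at an unadjusted p under 0.05. Of all genes 0.0210% passed as higher with siSelT-1 and 0.0421% as lower, and the shares were the same after centring. The members' median difference, siSelT-1 minus siSelT-5, was -0.53 log2, against -0.26 for all genes, and -0.28 against -0.01 after centring, where 0 passed and 25 had an unadjusted p under 0.05. In 57 of 68 members both siSelT-5 arrays lay above both siSelT-1 arrays, against 52.6% of all genes, and in 0 members the reverse held. With each array centred on its median gene the count was 46, against 32.3%. Centring leaves the wider spread of the siSelT-5 arrays, whose shared probes had median absolute deviations of 0.52 and 0.62, against 0.37 and 0.35. With scaling as well, the difference turned above 0 for Ndufa1, Uqcrc1, Uqcrc2, Cox6a1, Atp5md and Atp5j, at 0.0046 to 0.26. The other members described in full kept their sign there. The part of the spread in these counts was not tested. The 6 members with the smallest p were Ndufb8, Ndufa4, Cox7c, Atp5j2, Cox5b and Ndufb7. Ndufb8, a membrane-arm subunit, had 0.43 and 0.22 with siSelT-1 and 1.44 and 1.45 with siSelT-5, a difference of -1.12. Cox5b had 0.21 and 0.21 with siSelT-1 and 1.12 and 1.39 with siSelT-5. Ndufb7, another membrane-arm subunit, had 0.35 and 0.33 with siSelT-1 and 1.30 and 1.18 with siSelT-5, a difference of -0.90. For each of the 6 the adjusted p was 0.0543. Without siSelT-5 replicate 1 the comparison called 36 members and 37.8% of all genes, and without siSelT-5 replicate 2 it called 39 members and 37.6% of all genes.

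Some members rest on probes that differ. Ndufc1, a complex I subunit, has 2 probes with all values. The first had 0.79 and 0.75 with siSelT-1 and 1.54 and 1.51 with siSelT-5. The second had -0.13 and -0.23 with siSelT-1 and -0.46 and 0.14 with siSelT-5. The gene mean of 0.49, which passed as deposited, thus averages probes of opposite sign. The 2 probes of Sdhc had means of 0.03 and 0.61, the first at -0.19 and -0.34 with siSelT-1 and the second at 0.55 and 0.35. Those of Ndufa5 had means of 0.09 and 0.68. Those of Sdhb had means of 0.10 and 0.45, the first at -0.05 and -0.36 with siSelT-1 and 0.85 and -0.04 with siSelT-5. The second had -0.02 and 0.09 with siSelT-1 and 0.97 and 0.75 with siSelT-5. The 3 probes of Ndufs4 had means of 0.32 to 0.80, and both probes of Cox5b lay within 0.69 to 0.78.

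Of the 154 member probes, 107 had a value on all 4 arrays, or 69.5%, against 34.5% of all probes with 1 gene name. A further 20 had values on both siSelT-5 arrays and on neither siSelT-1 array, and 8 of these belong to Sdha. The other 12 had a median of -0.81 on the siSelT-5 arrays, with 10 below 0. All 5954 probes of this kind had a median of -0.61, with 82.2% below 0. The higher ratios of the tested members were thus measured on probes with values on all 4 arrays. A probe of Ndufb8 with values on the siSelT-5 arrays alone had -0.70 and -0.95 there, and one of Ndufv3 -0.41 and -0.93. The tested probes of these genes stood above 1 there. For Ndufa10 such a probe had -2.47 and -0.99, while the tested probe had 0.73 and 0.38. For Ndufa5 it had 0.50 and 0.27, and for Atp5c1 0.40 and -0.27. Further probes of Atp5md, Ndufa13 and Ndufv2 had a value on 1 siSelT-5 array only, at -1.60, -0.41 and -1.03. The 10 members not tested were Ndufab1, Ndufb2, Ndufb11, Uqcrfs1, Uqcrh, Cox4i2, Cox6a2, Cox6b2, Cox7a2 and Cox7b2. Uqcrh, a hinge protein of complex III, had 0.68 and 0.65 with siSelT-1 and 1.31 on siSelT-5 replicate 1 and lacked only the fourth value. Uqcrfs1, the Rieske iron-sulfur protein, had -1.87 and -0.97 on the siSelT-5 arrays alone. Cox4i2, Cox6a2, Cox6b2 and Cox7b2, isoforms of lung, muscle or testis, had values below 0 wherever they had one. The same held for Ndufab1, Ndufb2, Ndufb11 and Cox7a2, the last at -0.30 and -0.09 on the siSelT-5 arrays. Uqcrh was thus the only member not tested that had values above 0.

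Of all tested genes 45.7% rose and 8.04% fell, with a median of 0.25 log2. After centring, 20.5% passed as higher and 21.9% as lower. The lists of genes around the respiratory chain are read against these shares. Of 56 assembly factors 19 were measured, and 9 rose and 3 fell, with a median of 0.24 log2, or 5 and 5 after centring, a share of risen genes near that of all genes. Uqcc2, an assembly factor of complex III, rose to 0.97, Cox19 to 0.78 and Cmc1 to 0.88, while Sdhaf2, which inserts the flavin into Sdha, fell to -0.55, Ecsit to -0.46 and Surf1 to -0.31 (limma, adjusted p 0.00161 to 0.0210). Of 19 enzymes in or next to the tricarboxylic acid cycle 11 were measured and 9 rose (median 0.45). Among them were Mdh2 at 0.56, Suclg1 at 0.56 and Dld at 0.45. After centring 1 of the 11 passed as higher, a smaller share than of all genes. Of 19 carriers and porins 10 were measured and 7 rose (median 0.33). Atpif1, the inhibitor of the ATP synthase, led at 0.84, with Slc25a1 at 0.55 and Vdac1 at 0.49. After centring 2 of the 10 passed as higher, near the share of all genes. Of 31 import genes 21 were measured, and 10 rose and 1 fell (median 0.22), or 5 and 3 after centring, again near the share of all genes. Tomm7 (0.86), Tomm20 (0.81) and the chaperonin gene Hspd1 (0.78) had the smallest p among them.

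Regulators of mitochondrial gene expression were sparsely measured, 7 of 24. Of these 4 rose and 1 fell, against 45.7% and 8.04% of all genes. After centring 0 rose and 1 fell, against 20.5% and 21.9%. Yy1, a zinc finger factor with binding sites in many such promoters, was the one that fell, to -0.90 (limma, adjusted p = 0.00161). Its single probe had -0.58 and -0.68 with siSelT-1 and -1.09 and -1.24 with siSelT-5, all 4 below 0. Esrra, an orphan nuclear receptor that activates these genes, rose to 0.67 and Ssbp1, a mitochondrial DNA binding protein, to 0.34, as deposited only. Esrra passed with neither siSelT-1 nor siSelT-5 alone (limma, adjusted p = 0.069 and 0.051), and Ssbp1 passed with siSelT-5 alone (adjusted p = 0.0076) but not with siSelT-1 alone.

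Promoter windows of RefSeq genes, 250 bases before to 50 after each start on GRCm38.p6, were found for 65 of the 78 members. They were searched on both strands for the letters AAGATGGC, a core of YY1 sites, CCGGAAG, a core of GABP sites, and TGCGCATGC, a core of NRF1 sites. The YY1 letters were in 14.5% of the 62 windows of tested members, against 5.09% of the 5053 windows of all tested genes. The GABP letters were in 24.2% against 19.5%, and the NRF1 letters in 8.06% against 3.27%. The YY1 letters contain ATG and mostly lay just after the start, in the forward direction: in 7 of the 62 member windows (11.3%), against 127 of 5053 (2.51%). Members with and without the YY1 letters had like ratios, with medians of 0.66 (9 genes) and 0.63 (48 genes). For the GABP letters the medians were 0.65 (15 genes) and 0.64 (42 genes). For the NRF1 letters they were 0.49 (5 genes) and 0.66 (52 genes), lower with the letters, and no test was run. A match of letters is not a measured binding site.

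The 7 windows with the YY1 letters after the start are shown because the letters lie close to the start in each, in 30 bases, 5′ to 3′ on the strand of the gene, with the matched letters in capitals. They lie at chr7:3617384-3617413 (plus strand) for Ndufa3, chr5:145191500-145191529 (minus) for Atp5j2, chr19:44555393-44555422 (minus) for Ndufb8, chr6:126849097-126849126 (minus) for Ndufa9, chr10:80249462-80249491 (plus) for Ndufs7, chr13:114388045-114388074 (minus) for Ndufs4 and chr3:51408915-51408944 (minus) for Ndufc1.
Ndufa3: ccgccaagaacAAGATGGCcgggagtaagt
Atp5j2: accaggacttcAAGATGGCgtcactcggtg
Ndufb8: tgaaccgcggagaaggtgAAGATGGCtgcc
Ndufa9: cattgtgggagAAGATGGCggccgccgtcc
Ndufs7: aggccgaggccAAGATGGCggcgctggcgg
Ndufs4: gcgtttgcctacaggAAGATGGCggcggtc
Ndufc1: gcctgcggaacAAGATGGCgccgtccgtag

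Stretches of 60 bases before the start show GABP and NRF1 letters in members of different complexes and unlike ratios. The capitals mark CTTCCGG, the GABP letters on the other strand, in Atp5h (chr11:115419924-115419983, minus strand, ratio 1.24), Cox6b1 (chr7:30626115-30626174, minus, 0.87) and Sdhd (chr9:50603862-50603921, minus, 0.46). They mark GCATGCGCA, the NRF1 letters on the other strand, in Ndufa6 (chr15:82354340-82354399, minus, 0.84) and Atp5g2 (chr15:102671053-102671112, minus, 0.56).
Atp5h: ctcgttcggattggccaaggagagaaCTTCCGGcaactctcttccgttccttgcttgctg
Cox6b1: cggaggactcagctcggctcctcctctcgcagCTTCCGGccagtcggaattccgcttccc
Sdhd: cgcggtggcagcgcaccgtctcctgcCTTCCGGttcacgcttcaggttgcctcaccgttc
Ndufa6: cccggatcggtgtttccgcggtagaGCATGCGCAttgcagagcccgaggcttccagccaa
Atp5g2: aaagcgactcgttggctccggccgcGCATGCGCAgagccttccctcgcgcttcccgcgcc

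Ratios within an array give no levels, so the fibroblast label could not be checked against marker levels. Of 12 fibroblast markers 8 were measured, and 4 rose and 3 fell over both constructs (2 higher and 4 lower after centring). Of all genes 45.7% rose and 8.04% fell (20.5% and 21.9% after centring). Ratios ran up to 0.88 for Pdgfra and down to -0.61 for Fn1. Postn, counted as risen, had -0.75 and -0.82 with siSelT-1 (limma, adjusted p = 0.0296) and 1.72 and 1.55 with siSelT-5 (adjusted p = 0.00202). It was the 1 fibroblast marker called between the constructs. The endothelial markers measured, 3 of 5, all rose, also after centring (Cd34 0.72, Pecam1 0.70 and Tie1 0.72). Of 6 macrophage markers Lyz1 and Lyz2 were measured and did not pass as deposited, at -0.16 and -0.20, and both passed as lower after centring (adjusted p = 0.0111 for Lyz1 and 0.00739 for Lyz2). Of 5 epithelial markers 0 were measured. Their part in the subunit ratios was not tested.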

How the data were processed

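The deposited table holds 1 log ratio per probe and array, read as log2 of Cy5 over Cy3. Base, background correction, normalization and filter are not given in the sources used here, so what the authors did to the values is known only from the deposited log2 ratios themselves. The siSelT-1 arrays hold 7689 and 9232 values and the siSelT-5 arrays 20268 and 18361, which limits tested genes to probes present on all 4. Genes were taken as the mean of probes with 1 gene name (platform annotation) and a value on all 4 arrays, and fitted with limma 3.58.1 in R 4.3.3 as 2 construct means with 2 residual degrees of freedom, Benjamini-Hochberg adjusted over 4754 genes, two-sided. p-values measure the spread between these arrays, taken as the same for both constructs of a gene.

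Members, gene lists and size classes were chosen with earlier results of these data known. Protein lengths, planned as the measure of size, were not used here. Size classes were instead assigned by hand from general knowledge, after the members' ratios had been seen. Among members, those described in full were the 3 highest and 2 lowest of complexes I, III, IV and V, all of complex II, Cyc1, Cycs, members that fell, and the 6 with the smallest p between constructs. Up to 3 members of other lists with the smallest p were named; any further name was picked with its values known. The fit for both constructs was tested on simulated data, 200 of 4754 genes being changed, in 25 runs with 2 choices of spread. With each gene's own residual SD, tried first, 43.1% of the 0.5 log2 changes and 78.8% of the 1 log2 changes were found, with 3.25% false calls. That recovery was below what had been asked of the test, and the spread was then replaced by limma's moderated SD, which gave 84.6% and 99.5%, with 7.23% false calls, above the nominal share. The simulated noise was normal with the same spread for both constructs, and unchanged genes were centred at 0. In the data the spreads of the constructs differed, the array medians lay above 0 and 53.7% of all genes passed. The simulated shares therefore do not give the power or the false calls here. Alternatives were centring, scaling, single probes, a looser filter, robust eBayes, a replicate block and each array left out. Centring with a block or with an array left out was added after seeing the data.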

Additional observations from a re-analysis of the deposited data

Results flagged for a closer look

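Cox7b, Ndufs8, Sdha and Sdhb were picked out because both arrays of siSelT-1 lay below 0 and both arrays of siSelT-5 above 0. For Sdhb this held for the mean of its 2 probes and for neither probe alone. The first lay at -0.04 on siSelT-5 replicate 2, and the second at 0.09 on siSelT-1 replicate 2. The difference, siSelT-1 minus siSelT-5, was -0.60 log2 for Cox7b, -0.56 for Ndufs8, -0.37 for Sdha and -0.72 for Sdhb. It was tested in limma and did not pass for any of the 4 (adjusted p 0.0761, 0.0914, 0.140 and 0.0877). Against vector with siSelT-5 alone, Cox7b, Ndufs8 and Sdhb passed as higher as deposited (limma, adjusted p 0.029, 0.041 and 0.020). None of them did so after centring, and Sdha did not pass with siSelT-5 on either scale. The zero point bears on these signs: after centring, the siSelT-5 mean was 0.04 for Cox7b, 0.01 for Ndufs8, -0.27 for Sdha and 0.24 for Sdhb.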

How the results depend on the processing

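With 2 arrays per construct, the fit borrows its spread across genes, and single arrays weigh heavily. For both constructs together 58 of 68 members passed in either direction, and the count ran from 0 to 62 with an array left out, and from 0 to 53 centred. Calls over all 4754 genes moved with these counts, from 0% to 67.1% for both constructs, 0% to 43.9% for siSelT-1, 34.1% to 63.7% for siSelT-5 and 0% to 37.8% for the difference, as deposited. The members' count was 43 centred, 44 centred and scaled, 60 of 71 with the looser filter, 71 of 107 single probes, 58 with robust eBayes and 59 with the replicate block. For siSelT-1 the count of 19 became 7 centred, 30 centred and scaled, 0 with the looser filter, 0 with the replicate block, 10 with the block and centring, and 0 to 42 with an array left out (0 to 35 centred). For siSelT-5 the count of 59 became 37 centred and scaled and 51 to 61 with an array left out, and the centred count of 41 became 20 to 52. For siSelT-1 minus siSelT-5 the 0 became 0 to 39 with an array left out (0, 22 and 27 centred) and stayed 0 in the other fits. The cause of these moves was not tested, beyond the fewer arrays and residual degrees of freedom. With an array left out, the lone array of a construct is assumed to vary like the other pair. Array medians of small minus large subunits, 0.19, ran from 0.17 to 0.21 with an array left out and stood at 0.50 over single probes, where Sdha counts once for each of its 31 probes. Same-numbered arrays of the 2 constructs deviated together at a correlation of 0.0758 over genes, so their numbers were not taken as pairs.

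Among the members described in full, 109 alternative values of 16 members had the other sign, 100 of them with centred arrays. In 2 of the 109 the value as deposited had passed (Cox7b and Sdhb with siSelT-5), and in 6 the value passed only after the turn. Values of a member that repeat at this rounding are given once. Ndufa1 for siSelT-1 minus siSelT-5, -0.44 as deposited, stood at 0.12 centred and scaled. Ndufa8 over both constructs, -0.025 as deposited, stood at -0.12 to 0.070 with an array left out as deposited. Ndufa8 with siSelT-5, 0.045 as deposited, stood at -0.35 centred, -0.27 centred and scaled, -0.35, -0.51 and -0.19 centred with an array left out, -0.15 to 0.23 with an array left out as deposited. Ndufa8 for siSelT-1 minus siSelT-5, -0.14 as deposited, stood at 0.11 centred, 0.15, 0.079 and 0.27 centred with an array left out, -0.33 to 0.051 with an array left out as deposited. Ndufs1 with siSelT-5, -0.066 as deposited, stood at -0.19 to 0.061 with an array left out as deposited. Uqcrc2 for siSelT-1 minus siSelT-5, -0.39 as deposited, stood at 0.019 centred and scaled. Uqcrc1 over both constructs, 0.49 as deposited, stood at -0.016 centred with an array left out. Uqcrc1 with siSelT-5, 0.63 as deposited, stood at -0.25 centred with an array left out. Uqcrc1 for siSelT-1 minus siSelT-5, -0.26 as deposited, stood at 0.063 centred and scaled, 0.014 and 0.47 centred with an array left out, -0.78 to 0.25 with an array left out as deposited. Cyc1 with siSelT-1, 0.16 as deposited, stood at -0.023 centred with an array left out. Cyc1 for siSelT-1 minus siSelT-5, -0.30 as deposited, stood at 0.00097 and 0.010 centred with an array left out. Cox6a1 for siSelT-1 minus siSelT-5, -0.51 as deposited, stood at 0.0046 centred and scaled. Cox5a over both constructs, 0.16 as deposited, stood at -0.11 centred, -0.13 centred and scaled, -0.19, -0.037 and -0.23 centred with an array left out. Cox5a with siSelT-1, -0.036 as deposited, stood at -0.23 to 0.16 with an array left out as deposited. Cox5a with siSelT-5, 0.35 as deposited, stood at -0.048 centred, -0.023 centred and scaled, -0.048 and -0.28 centred with an array left out. Cox5a for siSelT-1 minus siSelT-5, -0.38 as deposited, stood at 0.021 and 0.10 centred with an array left out. Cox7b over both constructs, 0.13 as deposited, stood at -0.13 centred, -0.19 centred and scaled, -0.16, -0.10, -0.064 and -0.20 centred with an array left out. Cox7b with siSelT-5, 0.44 as deposited, stood at -0.092 centred with an array left out. Atp5md for siSelT-1 minus siSelT-5, -0.56 as deposited, stood at 0.041 centred and scaled. Atp5j with siSelT-5, 0.32 as deposited, stood at -0.077 centred, -0.065 centred and scaled, -0.077, -0.051 and -0.10 centred with an array left out. Atp5j for siSelT-1 minus siSelT-5, -0.023 as deposited, stood at 0.23 centred, 0.26 centred and scaled, 0.23, 0.20 and 0.26 centred with an array left out, -0.074 to 0.028 with an array left out as deposited. Atp5pb over both constructs, 0.14 as deposited, stood at -0.13 centred, -0.14 centred and scaled, -0.16, -0.094 and -0.096 centred with an array left out. Atp5pb with siSelT-1, -0.0043 as deposited, stood at -0.12 to 0.11 with an array left out as deposited. Atp5pb with siSelT-5, 0.28 as deposited, stood at -0.11 centred, -0.094 centred and scaled, -0.11, -0.048 and -0.17 centred with an array left out. Atp5pb for siSelT-1 minus siSelT-5, -0.29 as deposited, stood at 0.029 and 0.025 centred with an array left out. Sdha with siSelT-5, 0.13 as deposited, stood at -0.27 centred, -0.22 centred and scaled, -0.27 and -0.26 centred with an array left out. Sdhb over both constructs, 0.28 as deposited, stood at -0.038 centred and scaled, -0.11 centred with an array left out. Sdhb with siSelT-5, 0.63 as deposited, stood at -0.0014 centred with an array left out. Sdhc with siSelT-1, 0.092 as deposited, stood at -0.048 centred, -0.064 centred and scaled, -0.089, -0.0076 and -0.048 centred with an array left out. Cycs over both constructs, 0.22 as deposited, stood at -0.044 centred, -0.086 centred and scaled, -0.088 and -0.25 centred with an array left out. Cycs with siSelT-1, -0.016 as deposited, stood at -0.058 to 0.026 with an array left out as deposited. Cycs with siSelT-5, 0.46 as deposited, stood at -0.34 centred with an array left out. Cycs for siSelT-1 minus siSelT-5, -0.48 as deposited, stood at 0.18 centred with an array left out.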
